A study of Homo sapiens with 13 samples.

Results

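The H146 atlas of accessible regions held 1145 wide regions with no counterpart in H82. They were selected on 2 measured values, a width of at least 1000 bp and 0 bp of overlap with any region of the H82 atlas, on chromosomes 1 to 22. They made up 1145 of 169986 H146 regions on these chromosomes, and 1145 of 39513 H146 regions of that width (2.90%). The other 38368 wide H146 regions overlapped H82 and are called shared here, 48867 narrower regions were also found in H146 only, and 8178 H82 regions of at least 1000 bp did not overlap H146. Width and overlap chose the regions, so both are given as description and were not tested.

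H146 and H82 are established lines of small cell lung cancer (SCLC), a neuroendocrine tumour, both with wild-type genotype in the labels. H82 represents the NEUROD1 subtype. ATAC-seq was performed on 4 untreated and 3 FHD-286-treated H146 samples and on 3 untreated and 3 FHD-286-treated H82 samples, and all cells were cryopreserved before the assay. Treated cells had received FHD-286, which blocks the ATPase activity of SMARCA4 and SMARCA2, at 100 nM for 14 days. Of the H146 controls, 3 were sequenced in one batch and 1 in a second batch with the 3 treated samples. Each atlas pools the treated and untreated samples of a line and gives only where a region starts and ends. A region open only before or only after FHD-286 therefore cannot be told apart from one open in both, and the effect of the inhibitor, the read depth and the spread between cultures were unknown for every region below.

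ATAC-seq cuts open chromatin with the Tn5 transposase, and broad open stretches away from promoters often coincide with clusters of enhancers, the elements that transcription factors bind to raise the output of a distant gene. SWI/SNF complexes slide and evict nucleosomes and keep many such elements open. In neuroendocrine SCLC, the proneural factor NEUROD1, the zinc finger repressor INSM1, the pioneer factor FOXA2 and the nuclear factor NFIB are among the regulators known to bind or depend on them. NEUROD1 favours the E-box CAGATG.

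As a check of the labels, the H82 atlas had a region over the transcription start site (TSS) of NEUROD1, whereas the nearest H146 region was 2895 bp away. Both atlases had regions over the TSSs of INSM1, FOXA2, CHGA, NCAM1 and DLL3.

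Stretches of 200 bases from 4 of the wide H146-only regions show their sequence. Each is the window with the most matches to the 12 motif words that were denser in these regions than in wide H82-only regions, described further on, among windows clear of annotated exons. Capitals mark the matches, on either strand. All are read from GRCh38 (hg38), plus strand. The NFIB window (chr9:14278135-14278334) lies in an intron of NFIB, the INSM1 window (chr20:20296989-20297188) in an intron of CFAP61, the FOXA2 window (chr20:22449025-22449224) between genes, and the PAX5 window (chr9:36912078-36912277) in an intron of PAX5.
NFIB: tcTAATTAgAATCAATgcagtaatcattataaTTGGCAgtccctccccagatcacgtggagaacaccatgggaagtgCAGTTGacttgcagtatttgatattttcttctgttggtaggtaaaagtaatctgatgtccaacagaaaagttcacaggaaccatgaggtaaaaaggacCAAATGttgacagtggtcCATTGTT
INSM1: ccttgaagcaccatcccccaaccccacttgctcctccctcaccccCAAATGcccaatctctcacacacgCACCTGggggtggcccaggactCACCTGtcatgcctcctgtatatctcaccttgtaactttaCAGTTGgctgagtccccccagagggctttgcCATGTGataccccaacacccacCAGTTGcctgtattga
FOXA2: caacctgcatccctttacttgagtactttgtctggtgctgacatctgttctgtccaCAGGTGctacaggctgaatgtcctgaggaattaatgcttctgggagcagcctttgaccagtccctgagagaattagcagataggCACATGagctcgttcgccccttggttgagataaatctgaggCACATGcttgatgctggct
PAX5: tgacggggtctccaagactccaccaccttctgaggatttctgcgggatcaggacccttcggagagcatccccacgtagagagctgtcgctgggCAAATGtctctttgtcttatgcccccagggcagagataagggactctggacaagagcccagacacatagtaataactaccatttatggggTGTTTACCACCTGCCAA
The NFIB window held 6 matches, to SOX, homeobox, ONECUT, the NFI half-site and a pair of E-boxes. The INSM1 window also held 6 matches, and all of them were E-boxes. In the PAX5 window a FOXA word stood beside the E-box CAGGTG at the right end. An NFI half-site there overlapped that E-box, sharing its letters TG.

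The regions were only slightly wider than the limit. Their median width was 1169 bp (quartiles 1077 and 1365 bp), against 1583 bp in wide shared H146 regions and 1337 bp in wide H82-only regions. At the limit, 2 regions measured exactly 1000 bp, and 4 H146-only regions of exactly 999 bp stood just outside. In the 50 bp to either side of it, 196 H146-only regions measured 1000 to 1049 bp and 219 measured 950 to 999 bp. The other limit was as close: the smallest H82 overlap among wide shared regions was 6 bp, and 4 of them overlapped by under 10 bp.

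The share of H146 regions without H82 overlap fell with width. It was 7.81% among H146 regions of 1000 to 1099 bp (367 of 4702), 3.69% at 1200 to 1499 bp (344 of 9329), 1.50% at 1500 to 1999 bp (141 of 9377) and 0.267% at 2000 bp or more (32 of 11966). A wider region is more easily overlapped by 1 bp, so this order follows in part from the rule. For H82 the share of wide regions without overlap was 18.0% (8178 of 45391).

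The nearest H82 region lay a median of 2779 bp away (quartiles 1195 and 6962 bp). For 63 of the 1145 regions the gap was under 500 bp, the distance within which the authors merged peaks of 1 line, and the smallest gap was 1 bp. For 205 the gap exceeded 10 kb, up to 137981 bp.

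**Figure D1:**
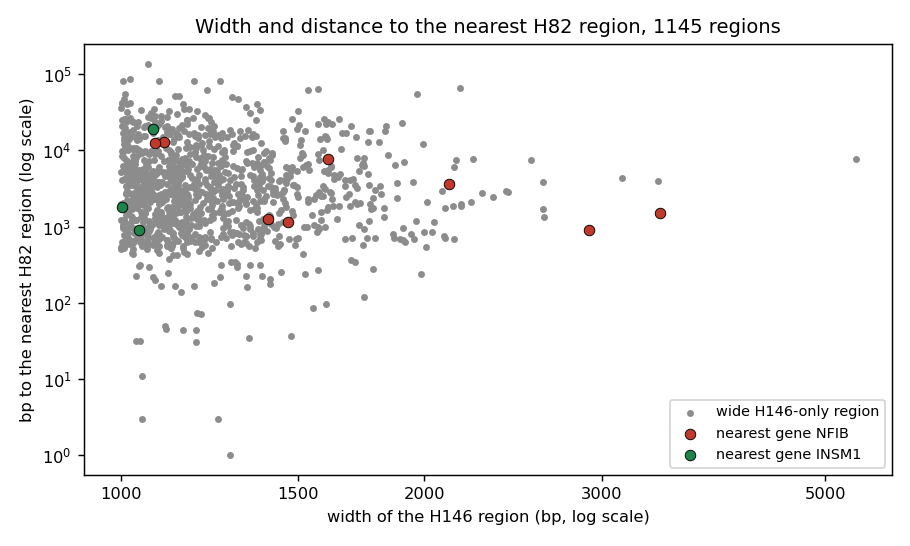
Width of each wide H146-only region (x axis, bp, log scale) against the distance to the nearest H82 region (y axis, bp, log scale), 1 point per region, 1145 in all, with those nearest to NFIB and INSM1 coloured. Most points lie below 1365 bp in width, while 2 of the 5 widest regions are coloured as nearest to NFIB.

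The widest region measured 5361 bp, at chr5:257210-262570 in an intron of a gene known only by its identifier, 9051 bp from the TSS of PDCD6, which encodes a calcium-binding protein. Its sequence was a tandem repeat. Only 22.9% of its 20-base words were distinct, and bases 32 apart were identical at 82.5% of positions. One unit of 32 bases occurred 32 times without a mismatch, first at chr5:258674-258705 (plus strand), and is shown because the widest region repeats at this period.
PDCD6 repeat unit: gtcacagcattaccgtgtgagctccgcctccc
With under 80% distinct 20-base words taken as a repeat, 14 of the 1145 regions (1.22%, Wilson 95% interval 0.730% to 2.04%) were repeats, against 1.97% of wide H82-only and 1.36% of wide shared H146 regions. In 955 regions (83.4%) every 20-base word was distinct. Reads are hard to place within tandem repeats, and how many copies H146 and H82 carry was not measured.

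Other regions among the widest lay at named genes. The 2nd measured 3428 bp (chr9:14204602-14208029) in an intron of NFIB, and the 4th 3139 bp (chr2:196816000-196819138) between genes, 6645 bp from the TSS of C2orf66. The 5th measured 2913 bp (chr9:14071288-14074200) past the 3′ end of NFIB. Those ranked 6th to 10th were 2422 to 2628 bp wide and were nearest to NOL6, RFTN1, CASR, ACTN2 and HHAT. CASR encodes the calcium-sensing receptor, and its region lay in an intron 2800 bp from the TSS. The region nearest to HHAT lay in an intron of KCNH1, a voltage-gated potassium channel gene.

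The wide H146-only regions were mostly far from promoters. Only 18 of 1145 (1.57%, Wilson 95% interval 0.997% to 2.47%) lay within 1 kb of the TSS of a protein-coding gene, whereas 27.5% of wide shared H146 regions did (10532 of 38368). The share was 3.19% in wide H82-only regions and 0.896% in narrower H146-only regions. Centres fell in introns for 49.9% (571 regions) and between genes for 46.2% (529 regions). Coding exons held 1.14% of the centres (13 regions) and other exons 2.80% (32 regions). The median distance to the nearest TSS was 65.0 kb, and 36.8% (421 regions) were over 100 kb from any, against 24.5% of wide shared and 30.0% of wide H82-only regions. Wilson intervals cover counting error only, since neighbouring regions are not independent.

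**Figure D2:**
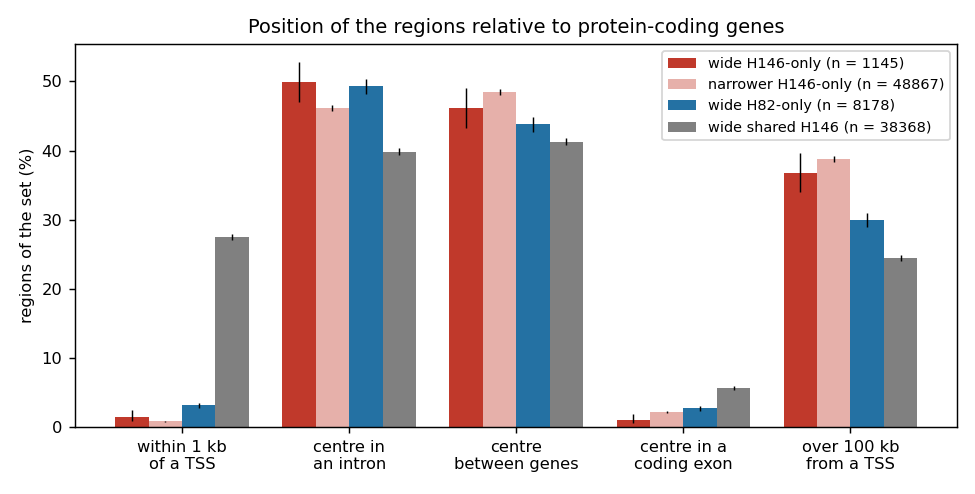
Percent of each set of regions (y axis) by position relative to protein-coding genes (x axis), with Wilson 95% intervals as bars. Wide H146-only regions (n = 1145) had 1.57% within 1 kb of a TSS against 27.5% of wide shared H146 regions (n = 38368), and resembled the other line-only sets in introns and between genes.

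The 18 promoter regions belonged to genes of varied function. They included TMEM265 (2409 bp), TAFA5 (2224 bp, 70.5% GC), which encodes a secreted protein of brain, CPAMD8 (1805 bp) and VIPR1 (1586 bp), the receptor for vasoactive intestinal peptide. Further down were ZP1 (1578 bp), TMEM239 (1407 bp), STK24 (1375 bp) and NOTCH3 (1276 bp). NOTCH3 encodes a Notch receptor of the pathway that opposes neuroendocrine differentiation, and its region, 75.9% GC, covered the TSS while the nearest H82 region was 4487 bp from it. AVP encodes vasopressin, a hormone that SCLC is known to secrete. Its region (1172 bp, chr20:3084133-3085304) covered the TSS. The nearest H82 region was 1244 bp from that TSS and 653 bp from the region. ADGRF5 (1168 bp), an adhesion receptor gene, stood most alone, with the nearest H82 region 36000 bp from its TSS. The regions of BPIFB4, NPIPA8 and MUC13 measured 1155, 1131 and 1104 bp. SUPT4H1, PSMF1, COX6A2 and BSND had the narrowest, of 1061, 1054, 1022 and 1011 bp. The PSMF1 region was 1 of the 14 tandem repeats.

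An H146-only region beside a TSS did not always mean that H82 had none there. At STK24 and SUPT4H1 H82 had a region over the TSS, and at TMEM239 H82 had one 932 bp from it. At the other 15 genes H82 had no region within 1 kb of the TSS. A further 41 regions (3.58%) lay within 1 kb of the start of a long noncoding RNA gene, of which 3 were also near a protein-coding TSS, and 4 (0.349%) within 1 kb of a microRNA gene: MIR5681A, MIR6754, MIR6770-2 and MIR6805.

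Assigned to the nearest protein-coding TSS, the 1145 regions fell to 953 genes, 4.99% of the 19103 gene symbols on these chromosomes. At least 3 regions fell to 35 genes, 0.183% of all. Nearest TSS is a label of position, not a measured target, and a gene in a sparse stretch collects more regions. NFIB had the most, with 8.

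NFIB encodes a nuclear factor I protein that shapes lung and brain development and drives SCLC metastasis in mouse models. Its 8 regions covered 15111 bp. They were 1082 to 3428 bp wide and lay 120.9 to 326.2 kb downstream of the TSS, with 6 in introns of the gene and 2 beyond its 3′ end. None contained the TSS, to which the nearest region was 1130 bp away in H146 and 1429 bp away in H82. H146 had 108 regions assigned to NFIB and H82 had 60, and the regions without overlap numbered 62 and 14. The 8 formed 2 runs of 4, with gaps under 50 kb: one of 96.6 kb (chr9:14182248-14278799) that held 28 H146 and 5 H82 regions, and one of 52.7 kb (chr9:14071288-14123970) that held 11 H146 and 2 H82 regions. The regions themselves varied, from 33.8% to 46.1% GC, and the widest had 8 matches to the E-box CAGGTG, 3 to the NFI half-site and 2 to FOXA.

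**Figure D3:**
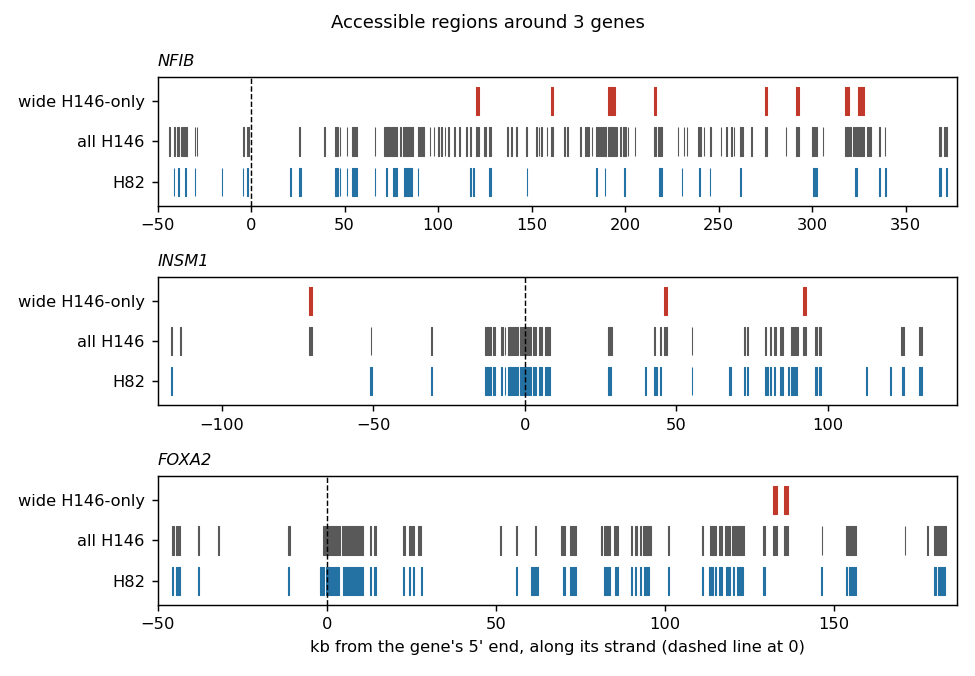
Accessible regions around NFIB, INSM1 and FOXA2, in kb from the gene's 5′ end along its strand (x axis, dashed line at 0), with wide H146-only regions in red, all H146 regions in grey and H82 regions in blue. Narrow regions are drawn at a minimum line width. The stretch drawn for NFIB holds 91 H146 and 36 H82 regions, that for INSM1 31 and 33, and that for FOXA2 39 and 37.

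Other genes with many regions were KHDRBS3 and PARD3 with 5 each and IPMK and TMEM121 with 4 each. KHDRBS3 encodes an RNA-binding splicing regulator, and its regions spread from 24.0 kb upstream to 1416.3 kb downstream of the TSS. PARD3 encodes a cell polarity scaffold, and all 5 of its regions were intronic, 62.0 to 608.8 kb from the TSS. IPMK encodes an inositol phosphate kinase, and its regions lay between genes. The stretch assigned to TMEM121 holds the immunoglobulin heavy chain genes, which the annotation does not class as protein-coding, and its 4 regions were among 248 H146 regions. Genes with 3 included TRIML1, LGALS8, TAFA5, SCLT1, KIF26B, CELF4, CNTN3, TSSK1B and TATDN1. The regions named for TSSK1B lay in introns of MCC, those named for TATDN1 in introns of MTSS1, and 1 of those named for TRIML1 was a tandem repeat.

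Of 26 neuroendocrine genes measured, 2 had a wide H146-only region (7.69%, against 4.99% of all genes). These genes had a median of 12 H146 regions, against 4 over all genes. Their 4 wide H146-only regions made 9.85 per 1000 H146 regions, against 6.74 over all genes. Wide H82-only regions were also more frequent there, at 58.7 per 1000 H82 regions against 40.7. INSM1 had 3, of 1077, 1042 and 1003 bp. They lay 70.6 kb upstream, in an intron of CFAP61, and 46.5 and 92.3 kb downstream, in introns of RALGAPA2. The upstream region stood 19152 bp from any H82 region, while those downstream were 892 and 1820 bp from one. Across the whole INSM1 stretch the lines did not differ in that way: H146 had 40 regions assigned and H82 had 42, with 7 and 8 without overlap. DDC, which makes dopamine and serotonin from their amino acid precursors, had 1 region of 1099 bp in an intron of GRB10. CHGA, NCAM1 and DLL3 had none. POU2F3, the regulator of tuft-like SCLC, had 1 of 1377 bp, 9.4 kb upstream in an intron of OAF.

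Among 25 foregut lineage factors 4 had a region (16.0%). FOXA2, a forkhead pioneer factor of endoderm, had 2, of 1189 and 1134 bp, close to each other (chr20:22449025-22450213 and chr20:22452463-22453596), 135.8 and 132.4 kb downstream of the TSS. The wider of them held 2 FOXA words. GATA6, ONECUT1 and GRHL2 had 1 each, of 1143, 1085 and 1037 bp, all upstream of the gene. The list had 765 H146 regions in all and 6.54 wide H146-only regions per 1000, near the 6.74 per 1000 of all genes.

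Among 45 neural lineage factors 6 had a region (13.3%), and NFIB held 8 of their 16. PAX5, a factor of midbrain and B cell development, had 3 in its introns (1700, 1213 and 1077 bp), SOX1 had 2 upstream (1159 and 1147 bp), and SOX5, SOX11 and NFIA had 1 each. The list held 14.8 wide H146-only regions per 1000 H146 regions, and 66.9 wide H82-only regions per 1000 H82 regions against 40.7 over all genes.

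Genes of cell surfaces in neurons had many regions in all, so counts of genes are read beside the rate per 1000 H146 regions. Of 38 neural adhesion genes 15 had a wide H146-only region (39.5%), with CNTN3 at 3 and CADM1, CDH6, CDH12, PCDH7, TENM3 and DSCAM at 2. These genes had a median of 55.5 H146 regions, against 4 over all genes, and the rate was 9.23 per 1000. For axon guidance 8 of 37 genes had one (21.6%), led by UNC5D with 3 and by ROBO1, DCC and UNC5B with 2, at 7.80 per 1000. For potassium channels it was 7 of 31 genes (22.6%), with KCNK9 at 2, at 8.33 per 1000. CACNA2D3, a calcium channel subunit, had 2 within its introns, and 3 of 25 calcium and sodium channel genes had any, at 9.13 per 1000. Of 32 genes for glutamate, GABA and glycine receptors 3 had 1 each (9.38%), at 4.21 per 1000, below the 6.74 of all genes.

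Synaptic vesicle genes had 4 with a region among 40 measured (7.86 regions per 1000, against 6.74 over all genes). SYT4, a synaptotagmin of dense-core vesicles, had 2 (12.0 and 75.0 kb downstream of the TSS). Peptide hormones and neuropeptides had 4 among 31 (14.0 regions per 1000). NTS, which encodes neurotensin, had 2 (1264 and 1124 bp), and PENK, AVP and ADCYAP1 had 1 each. Receptor kinases had 4 among 26 (9.39 regions per 1000), with RET, KIT, FGFR2 and PDGFRA at 1 each. Among genes of the low-neuroendocrine state 3 of 19 had a region (8.565 regions per 1000). They were NOTCH3, HES1, a Notch target, and MYC, whose 2 regions lay 129.1 and 236.1 kb downstream of the TSS. Of 30 SWI/SNF subunit genes only BCL7A had one, and of 27 epithelial adhesion and keratin genes none did, at 400 and 160 H146 regions in all. No list was tested, and a list's share near the 4.99% of all genes is no result about it.

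Most wide H146-only regions stood alone among others of their kind, since 1005 had no other within 50 kb. The remaining 140 formed 60 pairs, 4 runs of 3 and 2 runs of 4. Both runs of 4 were nearest to NFIB, and the runs of 3 included those nearest to LGALS8 (52.3 kb), TATDN1 (29.7 kb) and PPP1R14C (83.6 kb).

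Their surroundings were open in both lines. Within 50 kb to either side there was a median of 10 other H146 regions and 10 H82 regions. Around wide shared H146 regions these medians were 10 and 12, and around wide H82-only regions 7 and 12. Only 14 of the 1145 (1.22%) had no H82 region within 50 kb.

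The regions were spread over all 22 chromosomes. They numbered from 9 on chromosome 21 to 116 on chromosome 1, and as a percent of wide H146 regions from 1.18% on chromosome 19 (19 of 1606) to 4.43% on chromosome 20 (52 of 1175), with 4.37% on chromosome 8 (90 of 2058) and 4.30% on chromosome 18 (102 of 2371). Chromosome 18 had the most per Mb, 1.27 against 0.398 over all. It was also where wide H82 regions were least often without H146 overlap, 3.28% against 18.0% over all. Copy number of either line was not measured.

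**Figure D4:**
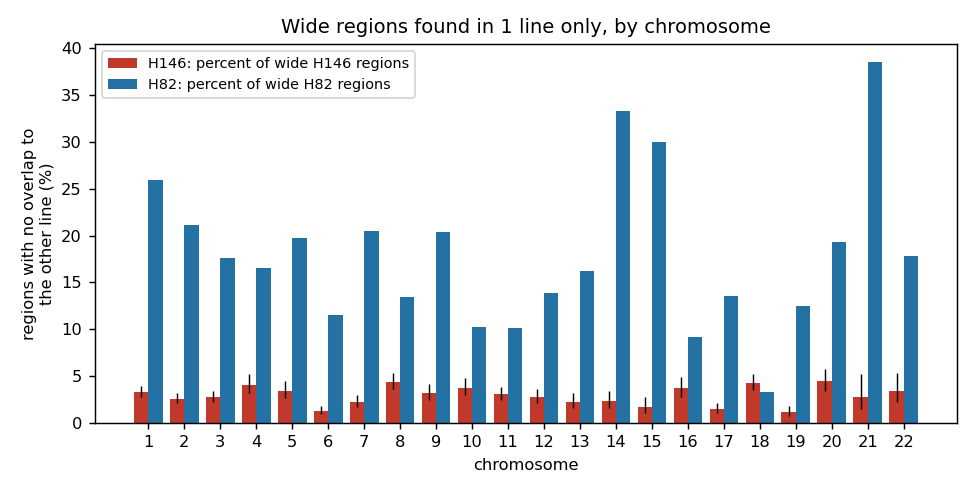
Percent of wide regions that did not overlap the other line (y axis), by chromosome (x axis), for H146 (red, Wilson 95% intervals) and H82 (blue). H146 ranges from 1.18% on chromosome 19 to 4.43% on chromosome 20, and chromosome 18 is where H146 is above H82 (4.30% against 3.28%).

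The sequence of the regions was not used to choose them and was compared by exact motif words on both strands. The comparison treats the 22 chromosomes as units (two-sided sign-flip permutation test), so its p-values say nothing about spread between cultures. Reading each word backwards gave a control of similar base composition. Its pairs of letters, such as CG, can differ from those of the word, and it can contain another word. Words that can overlap, such as the homeobox word TAATTA and the HNF1 word, TTAATNATT, are not independent. A match is a description of letters, not a bound site. Of the 31 words, 8 had under 100 matches in these regions and are not read here, since the 0.5 added to each chromosome's count weighs on ratios of so few matches. That limit was set after the values were seen. Tested by the excess of matches per chromosome, which adds nothing to the counts, CREB was sparser than in both other wide sets (adjusted permutation p = 0.003255 against wide H82-only and 4.429e-05 against wide shared regions). CREB had only 2 matches here. It did not differ from its reverse against wide H82-only regions (adjusted permutation p = 0.2089) and lay below it against wide shared regions (adjusted permutation p = 0.02117). By the same excess, against wide shared regions ETS and CTCF were also sparser and the POU octamer denser (adjusted permutation p = 6.889e-05, 0.001379 and 0.01093). ETS and CTCF had only 10 and 6 matches here, and by the log2 ratio CTCF did not pass (adjusted permutation p = 0.4049). The reverse of the POU octamer was denser still, with a log2 ratio of 0.68 against 0.46, and the word lay below it (adjusted permutation p = 0.01085).

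GC content was lower in these regions. Its mean was 47.2% (SD 8.33 over regions), against 49.5% in wide H82-only regions, a difference of −2.34 points (jackknife SE 0.779, permutation p = 0.00639, lower on 17 of 22 chromosomes). Against wide shared H146 regions, at 53.3%, the difference was −6.08 points (SE 0.453, permutation p = 1e-05, the smallest the resampling can give, lower on 22 of 22). Away from promoters that difference was −3.68 points (SE 0.430). Narrower H146-only regions had 47.3% GC.

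Against wide H82-only regions, words of FOXA and SOX were denser and those of OTX2, KLF/SP and NEUROD1 were sparser. Of all 31 words, 71.0% passed an adjusted p of 0.05 (18 denser and 4 sparser), and of the 23 words read, 12 were denser and 4 sparser. A share that high is the background for each word below. The FOXA word TGTTTAC occurred 0.213 times per kb (310 matches) against 0.126, a log2 ratio of 0.76 (SE 0.10, adjusted permutation p = 3.444e-05, higher on 20 of 22 chromosomes). It was present in 22.3% of the regions and in 16.7% of wide H82-only regions. One tandem repeat in an intron of ADARB2, nearest to the TSS of WDR37, held 18 of the 310 matches, and without repeats in either set the log2 ratio was 0.73. Among regions of at least 1500 bp it was 0.39 (adjusted permutation p = 0.03394), a call not read since the word had under 100 matches there. The reversed FOXA word was also denser, by 0.42, and the excess of the word over its reverse, 0.34, did not pass the threshold (adjusted permutation p = 0.1116). That reverse, CATTTGT, contains the E-box CAAATG on the other strand, which was itself denser by 0.31. It is therefore not a neutral control.

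SOX factors act in neural and stem cells. Their word AACAATG had a log2 ratio of 0.72 (SE 0.18, adjusted permutation p = 3.444e-05, higher on 20 of 22 chromosomes) and exceeded its reverse by 0.53 (adjusted permutation p = 0.02374). Among regions of at least 1500 bp the ratio was 0.25 (adjusted permutation p = 0.00341), a call not read since this word also had under 100 matches there. ONECUT (ATTGATT) and homeobox (TAATTA) words, with log2 ratios of 0.38 and 0.46, also exceeded their reverses (adjusted permutation p = 0.01762 and 0.03373). Against wide shared and against narrower H146-only regions the homeobox word instead lay below its reverse (adjusted permutation p = 0.04061 and 0.00042). The NFI half-site TTGGCA was denser by 0.38 (SE 0.041, higher on 20 of 22), but its difference from the reverse did not pass (adjusted permutation p = 0.3102). The HNF1 word had a log2 ratio of 0.50 and its reverse 0.54. RUNX (TGTGGTTT) stood at 0.47. AP-1 (TGANTCA) had a log2 ratio of 0.42 and was higher on 19 of 22 chromosomes, without passing the test (adjusted permutation p = 0.2048), whereas its excess of matches per chromosome did pass (adjusted permutation p = 0.0009989).

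OTX2 is a homeodomain factor of forebrain and eye. Its word TAATCC was found 0.486 times per kb against 0.956, or −0.98 as log2 ratio (SE 0.071, adjusted permutation p = 3.444e-05, lower on 21 of 22 chromosomes), and was present in 40.4% against 71.6% of regions. It fell below its reverse by 0.66 on the log2 scale (adjusted permutation p = 0.00015). The KLF/SP word CCCGCCC had a log2 ratio of −0.94 (SE 0.23) and reads the same backwards, so it has no control. TEAD (GGAATG) had −0.17 (SE 0.043). Its reverse had −0.37, and the difference between them did not pass (adjusted permutation p = 0.1861).

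The E-box forms were not all alike in these comparisons. CAGATG, the NEUROD1 form, was found 0.847 times per kb against 1.12 in wide H82-only regions, or −0.40 as log2 ratio (SE 0.073, adjusted permutation p = 3.444e-05, lower on 21 of 22 chromosomes). Its difference from the reversed word, −0.26, did not pass (adjusted permutation p = 0.6664). CAGCTG was found at 0.750 per kb here and 0.733 per kb there, with a log2 ratio of 0.03 (SE 0.12, adjusted permutation p = 0.4989). Among these regions 499 held no CAGCTG, 367 held 1 and 279 held 2 or more. CAGGTG, a form bound by SNAI, ZEB and TCF factors, was the most frequent E-box at 1.38 per kb and had a log2 ratio of 0.38 (SE 0.12, adjusted permutation p = 0.0007869). Of the other E-box forms, CAATTG was denser by 0.45, CAACTG by 0.25, CAAATG by 0.31 and CACATG by 0.10. Their reverses were denser by 0.27, 0.35, 0.45 and 0.59. CACATG lay below its reverse (adjusted permutation p = 0.04983), its excess of matches did not pass (adjusted permutation p = 0.0841), and none of the other three, nor CAGGTG, differed from its reverse by the test. In contrast, CATATG did not pass, nor did the E-box CACGTG or the form CACTTG.

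**Figure D5:**
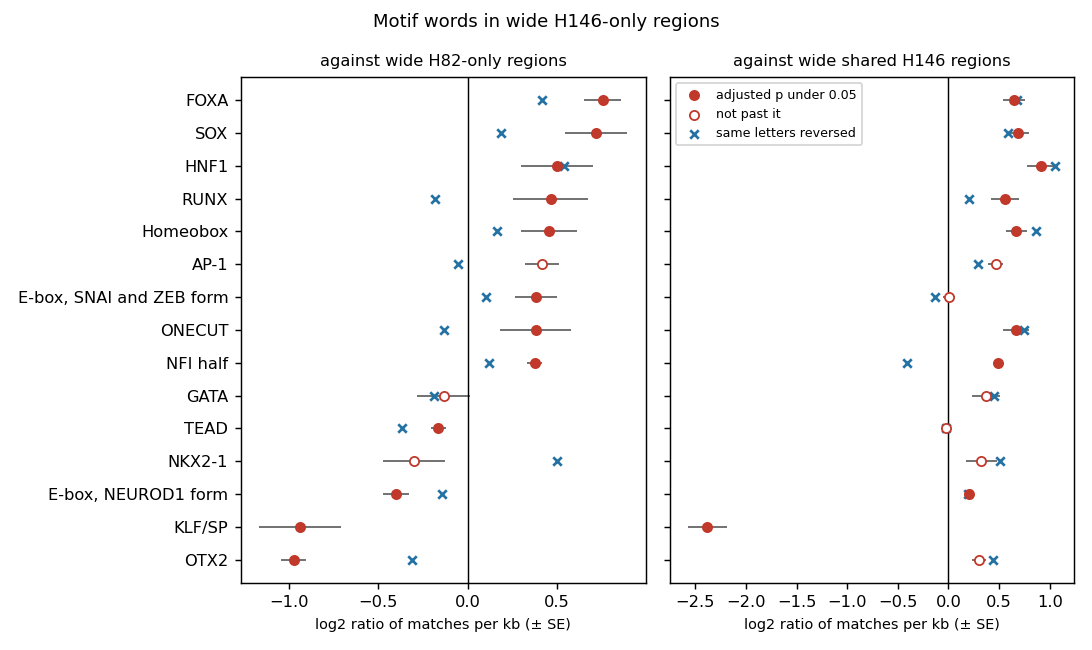
Log2 ratio of matches per kb in wide H146-only regions (x axis) for 15 motif words (rows), against wide H82-only regions (left) and wide shared H146 regions (right), with jackknife SE over 22 chromosomes. Filled points passed an adjusted p of 0.05, open points did not, and crosses are the same words reversed. The FOXA point lies at 0.76 and its cross at 0.42 on the left, and at 0.65 and 0.68 on the right.

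Against wide shared H146 regions, the same line at the same width limit, 74.2% of the 31 words passed (19 denser and 4 sparser). Of the 23 words read, 14 were denser and 2 sparser. KLF/SP was far sparser, at 0.155 against 0.808 per kb, or −2.38 as log2 ratio (SE 0.19, lower on 22 of 22 chromosomes), and was present in 12.9% against 45.7% of regions. With regions within 1 kb of a TSS left out, its log2 ratio was −1.63. CACGTG, an E-box of MYC and USF factors, had −0.54 (SE 0.14, adjusted permutation p = 0.00292), and did not pass in the central 500 bp or among regions of at least 1500 bp (adjusted permutation p = 0.08254 and 0.4471). HNF1, SOX, ONECUT and FOXA were denser, with log2 ratios of 0.92, 0.69, 0.67 and 0.65. Away from promoters, by the same limit, these were 0.67, 0.44, 0.39 and 0.44. Counted as regions with a match, FOXA (22.3% against 22.1%) and ONECUT (16.8% against 16.2%) did not pass (adjusted permutation p = 0.5523 and 0.2439). A wider region has more room for a match, and the shared regions were wider (median 1583 bp against 1169 bp). The part of width in such shares was not tested. The reverses of HNF1, SOX, ONECUT and FOXA were denser by 1.05, 0.59, 0.75 and 0.68, and none of these words differed from its reverse (adjusted permutation p = 0.879, 0.5588, 0.9089 and 0.831). The FOXA reverse again contains the E-box CAAATG, denser here by 0.57. The NFI half-site was denser by 0.49 (SE 0.040, higher on 21 of 22) while its reverse was sparser, by −0.41, and the gap between them, 0.90, passed (adjusted permutation p = 0.000225). That reverse, ACGGTT, holds the letter pair CG, which TTGGCA lacks. The gap was therefore not read as particular to NFI. CAGCTG had a log2 ratio of −0.05 (SE 0.050, adjusted permutation p = 0.8243), and passed as sparser in the central 500 bp (−0.30, adjusted permutation p = 0.02789) and by regions with a match (−0.29, adjusted permutation p = 0.0004133). CAGATG had one of 0.20 (SE 0.034, adjusted permutation p = 6.2e-05), which was 0.02 when regions near promoters were left out and did not pass there (adjusted permutation p = 0.5952) or in the central 500 bp (adjusted permutation p = 0.9362). OTX2 had one of 0.30, just short of the threshold (adjusted permutation p = 0.05451). It passed in the central 500 bp (0.59, adjusted permutation p = 0.0002255), among regions of at least 1500 bp (0.39, adjusted permutation p = 0.03045), without repeats (adjusted permutation p = 0.04631) and by excess of matches (adjusted permutation p = 0.001379), and was −0.18 by regions with a match (adjusted permutation p = 0.169). AP-1, at 0.46, did not pass (adjusted permutation p = 0.1071) but did by excess of matches (adjusted permutation p = 0.0008023).

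Against narrower H146-only regions, which differ from these regions in width by the rule, the density of FOXA and SOX words was not higher. Of the 31 words 32.3% passed (4 denser and 6 sparser), and of the 23 words read none was denser and 6 were sparser. FOXA was found 0.213 times per kb against 0.319 in the narrower regions, or −0.58 as log2 ratio (SE 0.098, adjusted permutation p = 0.001137, lower on 20 of 22 chromosomes). SOX stood at 0.2002 against 0.240 per kb (−0.26, adjusted permutation p = 0.2997). CAGCTG (−0.25), CAGGTG (−0.23), homeobox (−0.28), AP-1 (−0.19) and CAGATG (−0.09) were the other sparser words. OTX2 and KLF/SP had log2 ratios of 0.12 and 0.46 and did not pass (adjusted permutation p = 0.737 and 0.4802). Matches per kb in a narrower region come from nearer its middle, and the part of width in these differences was not tested.

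Except for OTX2, matches showed no clear gathering at the middle of the regions. CAGCTG occurred 0.631 times per kb within 200 bp of the centre and 0.847 times in the rest of the central 1000 bp, a ratio of 0.745, against 0.937 in wide H82-only and 1.02 in wide shared regions. OTX2 went the other way, with a ratio of 1.27, against 0.869 in wide H82-only and 0.904 in wide shared regions. FOXA, the NFI half-site and SOX had ratios of 0.968, 0.970 and 1.09. In a merged region the centre need not be a peak summit.

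Pairs of words shared a region about as often as the product of their separate shares gives. FOXA and the NFI half-site were both present in 13.3% of the wide H146-only regions, against 12.7% from the product of their shares. FOXA with SOX stood at 4.80% against 4.75%, FOXA with CAGCTG at 11.6% against 12.6%, and CAGCTG with CAGATG at 36.2% against 36.1%. In wide H82-only regions FOXA with SOX stood at 4.07% against 2.70%. These shares are descriptions and were not tested.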

How the data were processed

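The authors trimmed paired reads with Trim Galore 0.4.4, aligned them to hg38 with Bowtie2 2.3.4, removed duplicate reads, called peaks per sample with MACS2 (threshold not given in the sources used here), removed blacklisted regions and merged the peaks of a line within 500 bp. The deposited values are the region starts and ends of these 2 pooled atlases, in bp. They carry no counts, so nothing was tested per sample. Where peaks were merged, width is the span from the first start to the last end, gaps between the peaks included. No other column was set aside. The members and gene lists were chosen with earlier results of these data known.

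Regions on chromosomes 1 to 22 were annotated with GENCODE 44, the TSS being a gene's 5′ end, and coordinates are 1-based. Motif matches per kb were compared by sign flips of per-chromosome log2 ratios (0.5 added to each count, 100000 resamples, seed 1), with Benjamini-Hochberg adjustment over 31 words and jackknife SEs, and the test was checked on simulated counts. Python 3.11.15, numpy 2.4.6, pandas 2.3.3 and scipy 1.17.1 were used. Named genes were the 15 with the most regions, those with a promoter region, list genes with at least 2 regions, and neuroendocrine and foregut genes with 1. Some that met this rule are not reported here. PPP1R14C, POU2F3, KCNH1, WDR37 and list genes with 1 region outside those lists, and the microRNA genes, were named after their values were seen, as were the reading limit of 100 matches and the repeat measure (20-base words, 80% distinct).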

Additional observations from a re-analysis of the deposited data

Results flagged for a closer look

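Chromosome X was outside the comparisons above. Its H146 atlas rows included 24 regions of at least 1000 bp without H82 overlap among 859 wide regions (2.79%), close in share to the 2.90% of chromosomes 1 to 22. They stood out only as signal in rows that no comparison used.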

How the results depend on the processing

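The number of regions depended on the limits: 2366 at 800 bp, 173 at 1500 bp, 32 at 2000 bp and 5691 when under 50% coverage by H82 was allowed. The promoter share rose to 8.30% at 5 kb, 14.4% at 10 kb, 8.47% with the TSSs of all transcripts and 3.47% at 1500 bp. Counting regions with a match in place of matches per kb left 4 words denser than in wide H82-only regions, and 3 denser and 6 sparser than in wide shared regions. The share of regions with a match rises with width, and these regions were narrower than both other wide sets. At 1500 bp 6 words were denser than in wide H82-only regions, 1 was sparser than in wide shared regions, and the GC difference from wide H82-only regions was −1.97 points without passing (permutation p = 0.6024), on fewer regions. The direction of CAGCTG turned against wide H82-only regions in the central 500 bp (−0.17) and by regions with a match (−0.15), and against wide shared regions at 1500 bp (0.035). HNF1 against wide H82-only regions turned at 1500 bp (−0.28). CAGATG and OTX2 against wide shared regions turned by regions with a match (−0.10 and −0.18). Beyond the region count's construction the causes were not tested. Of the other results for single words, 108 kept direction and call, 6 lost the call (those of FOXA, ONECUT and the E-boxes of NEUROD1 and of MYC) and 6 gained it (those of OTX2 and the E-box CAGCTG), each against wide shared regions and given above.

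Leaving out repeat-marked (soft-masked) bases was planned and not run, since the reference used here does not mark them. No paired analysis was possible because the atlases pool all samples of a line. Alternatives on repeats, on reversed words, on matches in excess and without NFIB were chosen after seeing the data.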
